A study of Mus musculus with 2 samples.

Results

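The miR-181 family was described across the left cerebral cortex of mice from its 6 annotated genes, Mir181a-1, Mir181b-1, Mir181a-2, Mir181b-2, Mir181c and Mir181d, taken by symbol from the 2202 microRNA genes of the GENCODE M21 annotation of mm10. The genes lie in 3 clusters of 2, and the clusters are compared here. The tissue came from adult male mice of strain 5xFAD/CAST, 8 to 10 months old. 5xFAD is a transgenic model of amyloid deposition whose transgenes are driven by the neuronal Thy1 promoter, and CAST usually denotes an inbred line with wild-caught ancestors. Transgene status of the animals sampled is not stated in the labels. There is 1 group of 2 microRNA-seq libraries, numbered in the labels as biological replicates 1 and 2. They are separate tissue samples under a shared donor identifier, and nothing says that they are separate animals, so their spread may be technical. No control animals were analysed here, and the results are levels and their spread.

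MicroRNAs are cut as a duplex from a hairpin, and 1 arm, most often the 5p arm in this family, guides the silencing complex to messenger RNAs that pair with its seed. The miR-181 family is best known for tuning T cell receptor signalling and for its part in blood cell development. It is also made in brain, where in rat neurons miR-181a represses a subunit of AMPA-type glutamate receptors. The clusters are copies of an ancestral pair, so that several loci give rise to the same mature product.

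The mature sequences are shown because they set which loci can be told apart. All sequences are from RefSeq (GRCm38, the assembly of mm10), 5′ to 3′, with the seed (bases 2 to 8) in capitals. The 5p arms of the 6 genes fall into 4 mature sequences with 1 seed, ACAUUCA, and no other mature sequence in the RefSeq table had that seed.
mmu-miR-181a-5p (Mir181a-1 and Mir181a-2): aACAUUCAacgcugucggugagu
mmu-miR-181b-5p (Mir181b-1 and Mir181b-2): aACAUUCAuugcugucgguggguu
mmu-miR-181c-5p (Mir181c): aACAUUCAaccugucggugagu
mmu-miR-181d-5p (Mir181d): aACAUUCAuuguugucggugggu
Counted from 1 at the 5′ end of the first-named arm, miR-181a-5p and miR-181b-5p differ by A9U, C10U and A21G, and by 1 more base at the 3′ end of miR-181b-5p. The arms miR-181b-5p and miR-181d-5p differ by C12U, and miR-181d-5p has 1 base fewer at the 3′ end. Between miR-181a-5p and miR-181c-5p the difference is a single missing base in miR-181c-5p. Each of miR-181a-5p and miR-181b-5p is therefore held by 2 loci on different chromosomes, while miR-181c-5p and miR-181d-5p are each held by 1.

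The 3p arms, by contrast, were all different, so an exact read of a whole 3p arm fits only 1 of them. Whether the counting separated the most alike of these arms was not tested.
mmu-miR-181a-1-3p: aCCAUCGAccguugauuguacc
mmu-miR-181a-2-3p: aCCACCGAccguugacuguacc
mmu-miR-181b-1-3p: cUCACUGAacaaugaaugcaa
mmu-miR-181b-2-3p: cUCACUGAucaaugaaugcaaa
mmu-miR-181c-3p: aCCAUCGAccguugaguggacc
mmu-miR-181d-3p: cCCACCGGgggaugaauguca
The arms miR-181a-1-3p and miR-181a-2-3p differ by U5C and U16C, so their seeds differ as well. The arms miR-181b-1-3p and miR-181b-2-3p differ by A9U and by 1 base at the 3′ end, and share the seed UCACUGA. Although from different clusters, miR-181a-1-3p and miR-181c-3p share the seed CCAUCGA and differ by U16G and U19G.

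The hairpins show how far the shared stretch reaches beyond the mature arm. The RefSeq table held hairpins for 5 of the 6 genes, all but Mir181c. Capitals mark the stretch around the 5p arm that is identical in both loci of a mature microRNA.
Mir181a-1, chr1:137966455-137966541, plus strand: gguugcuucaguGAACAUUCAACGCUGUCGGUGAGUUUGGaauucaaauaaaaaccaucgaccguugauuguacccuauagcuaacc
Mir181a-2, chr2:38852735-38852810, plus strand: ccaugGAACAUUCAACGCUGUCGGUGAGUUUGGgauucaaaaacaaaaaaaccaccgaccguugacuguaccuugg
Mir181b-1, chr1:137966639-137966718, plus strand: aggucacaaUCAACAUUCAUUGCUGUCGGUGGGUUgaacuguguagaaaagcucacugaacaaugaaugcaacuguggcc
Mir181b-2, chr2:38853830-38853918, plus strand: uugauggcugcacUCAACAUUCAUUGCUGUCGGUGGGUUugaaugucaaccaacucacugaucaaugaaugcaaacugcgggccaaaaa
For miR-181a-5p the identical stretch is 28 bases long, with 1 base before and 4 bases after the mature arm of 23 bases. For miR-181b-5p it is 26 bases long, with 2 bases before the mature arm of 24 bases and 0 after it, so the loci already differ at the first base past the 3′ end. Of all windows of 22 bases, 7 of 66 in Mir181a-1 and 7 of 55 in Mir181a-2 occur in another hairpin of the RefSeq table. For Mir181b-1 and Mir181b-2 these were 5 of 59 and 5 of 68, and for Mir181d 0 of 51. Only annotated hairpins were searched, not the whole genome. The gene counts keep reads that map to several places in a separate total, 6320188 reads in replicate 1 and 5615203 in replicate 2, and how many of these belong to miR-181 was not tested. A read that lies within an identical stretch matches both loci equally. The counts of the loci with a shared arm can therefore be too low, by an amount that was not tested.

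In the genome the clusters differ in their surroundings. Mir181c (chr8:84178873-84178961) and Mir181d (chr8:84178716-84178787) lie 85 bases apart on the minus strand. Both are in an intron of Nanos3 (chr8:84173731-84185217), which encodes an RNA-binding protein of germ cells. Mir181a-1 and Mir181b-1 lie 97 bases apart in an intron of the non-coding gene Gm4258 on the same strand. Both also overlap an exon of the non-coding RNA A430106G13Rik on that strand, Mir181b-1 in full and Mir181a-1 in part. On the opposite strand both face an intron of the non-coding RNA Gm26936. Mir181a-2 and Mir181b-2 lie 1019 bases apart, opposite to an intron of Nr6a1, the gene of an orphan nuclear receptor. The non-coding RNA Nr6a1os, on their own strand, ends 364 bases before Mir181a-2. Mir181b-2 is also opposite to an exon of Gm44144.

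All 6 genes were detected, meaning at least 10 reads in each library, against 417 of the 2202 genes in all. Levels are sense counts scaled to a total of 1000000 reads on microRNA genes (CPM), from 4929428 such reads in replicate 1 and 4441328 in replicate 2. A microRNA read spans a mature arm whatever the length of the hairpin, so levels were not divided by length. Intervals are exact 95% binomial intervals and cover counting error only, and errors after ± are the SD of 2 libraries. Together the 6 genes had 24642 reads (4999 CPM) in replicate 1 and 20967 reads (4721 CPM) in replicate 2. That is a mean of 0.486 ± 0.0197% of the reads assigned to microRNA genes (n = 2), which leaves out reads that map to several places. None of the 6 had a read on the opposite strand. The limit that a count of 0 allows, the level of 3 reads, is 0.609 CPM in replicate 1 and 0.675 CPM in replicate 2. In bulk tissue, fewer cells of a type and less RNA per cell cannot be told apart.

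**Figure D1:**
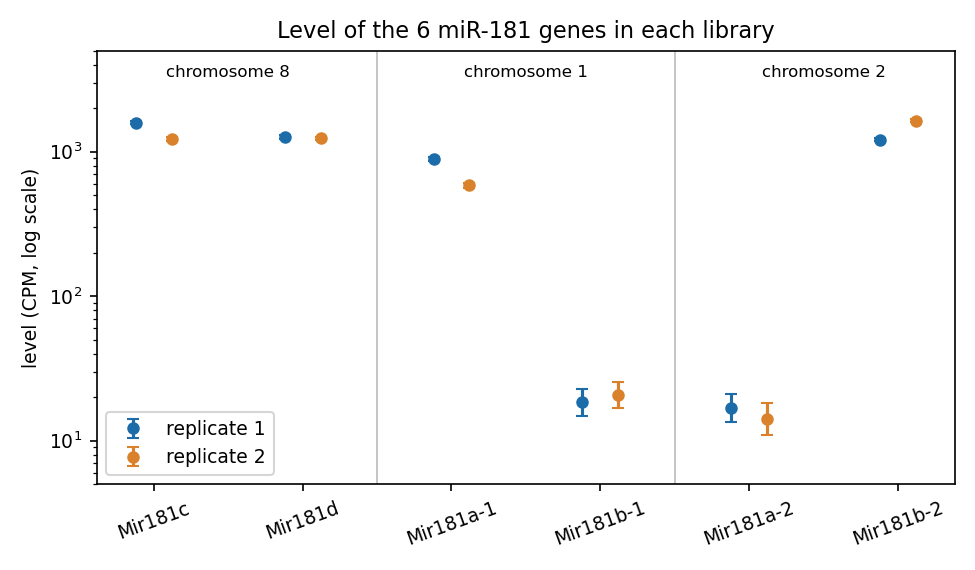
Level of each miR-181 gene in CPM (log scale) in replicate 1 and replicate 2, grouped by chromosome; bars are exact 95% binomial intervals, hidden by the points where narrow. Mir181c, Mir181d, Mir181a-1 and Mir181b-2 lie at 584 CPM or more in both libraries, while Mir181b-1 and Mir181a-2 lie between 14.2 and 20.7 CPM.

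On chromosome 8 both genes were abundant. Mir181c had 7845 reads in replicate 1, or 1591 CPM (interval 1556 to 1627), and 5453 reads in replicate 2, or 1228 CPM (interval 1195 to 1261). For Mir181d the 6236 and 5507 reads came to 1265 CPM (interval 1234 to 1297) and 1240 CPM (interval 1207 to 1273). The means were 1410 ± 257 CPM for Mir181c and 1252.5 ± 17.8 CPM for Mir181d (n = 2), ranks 82 and 86 among the 417 detected genes. The 2 genes were within 1.26-fold of each other in replicate 1 and 1.01-fold in replicate 2. The log2 ratios of Mir181c to Mir181d were 0.33 (interval 0.28 to 0.38) and -0.01 (interval -0.07 to 0.04). Mir181c was thus higher in replicate 1, and no direction was resolved in replicate 2. Their levels therefore did not differ beyond the spread between libraries.

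On chromosome 1 nearly all assigned reads belonged to 1 of the 2 genes. Mir181a-1 had 4407 reads (894 CPM, interval 868 to 921) in replicate 1 and 2593 reads (584 CPM, interval 562 to 607) in replicate 2, a mean of 739 ± 219 CPM (n = 2) and rank 109. Mir181b-1, whose hairpin begins 97 bases downstream, had 91 reads (18.5 CPM, interval 14.9 to 22.7) in replicate 1 and 92 reads (20.7 CPM, interval 16.7 to 25.4) in replicate 2, at rank 285. Mir181a-1 was 48.4-fold above Mir181b-1 in replicate 1 and 28.2-fold above it in replicate 2, log2 ratios of 5.60 and 4.82.

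On chromosome 2 it was the other member that held the assigned reads. Mir181a-2 had 83 reads (16.8 CPM, interval 13.4 to 20.9) in replicate 1 and 63 reads (14.2 CPM, interval 10.9 to 18.1) in replicate 2, the lowest of the family at rank 296. Mir181b-2 had 5980 reads (1213 CPM, interval 1183 to 1244) in replicate 1 and 7259 reads (1634 CPM, interval 1597 to 1672) in replicate 2. Its mean of 1424 ± 298 CPM (n = 2), rank 80, was close to that of Mir181c, within the spread of either gene, and the order of these 2 genes was opposite in the 2 libraries. The log2 ratio of Mir181a-2 to Mir181b-2 was -6.17 (interval -6.50 to -5.86) in replicate 1 and -6.85 (interval -7.23 to -6.49) in replicate 2.

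By mean CPM the order was Mir181b-2, Mir181c, Mir181d, Mir181a-1, Mir181b-1 and Mir181a-2. The first 3 overlapped across the libraries. Mir181a-1 lay below each of those 3 in both libraries, and far above Mir181b-1 and Mir181a-2. Between the last 2 genes the counting intervals overlapped in replicate 1 and in replicate 2.

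Among the reads assigned to a single miR-181 gene, the cluster on chromosome 8 held the most in both libraries. Reads that map to several places are outside these sums; the 5p arms of miR-181a and miR-181b, each shared by a locus on chromosome 1 and a locus on chromosome 2, can give such reads, so the order of the clusters is that of the assigned reads. Mir181c and Mir181d together took 57.1% of the assigned miR-181 reads in replicate 1 (interval 56.5 to 57.8%) and 52.3% in replicate 2 (interval 51.6 to 53.0%). Mir181a-1 and Mir181b-1 took 18.3% (interval 17.8 to 18.7%) and 12.8% (interval 12.4 to 13.3%), and Mir181a-2 and Mir181b-2 took 24.6% (interval 24.1 to 25.1%) and 34.9% (interval 34.3 to 35.6%). The shares of the clusters did not overlap between clusters over the 2 libraries. As sums the clusters stood at 2662 ± 275 CPM on chromosome 8, 759 ± 218 CPM on chromosome 1 and 1439 ± 296 CPM on chromosome 2 (n = 2).

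**Figure D2:**
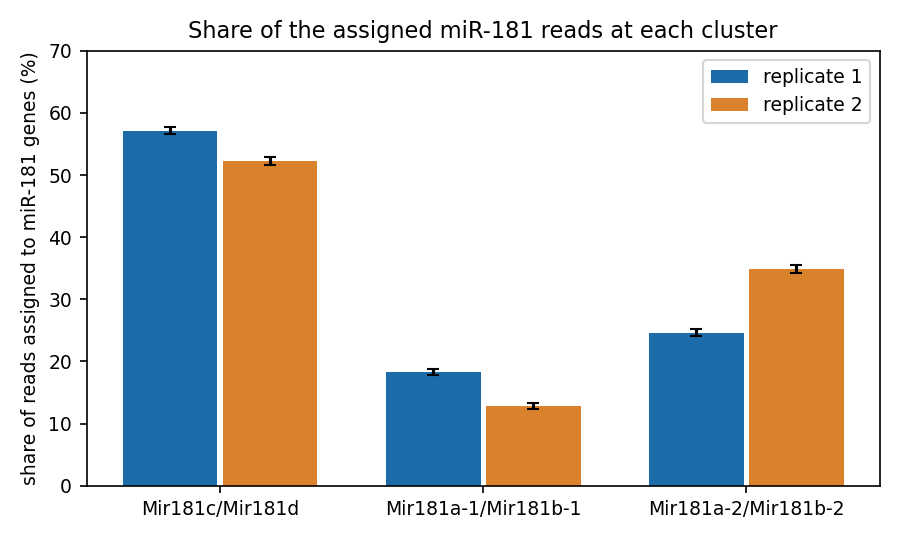
Share of the reads assigned to the 6 miR-181 genes (in %) at each cluster in replicate 1 and replicate 2, with exact 95% binomial intervals. The Mir181c/Mir181d bars reach 57.1% and 52.3%, above those of the other clusters in both libraries, and the Mir181a-1/Mir181b-1 bars are the lowest.

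The ratio of the chromosome 8 cluster to that on chromosome 1 was 3.13-fold in replicate 1 and 4.08-fold in replicate 2, a mean log2 ratio of 1.84 ± 0.27 (n = 2). Against the chromosome 2 cluster the log2 ratio was 1.22 (interval 1.17 to 1.26) in replicate 1 and 0.58 (interval 0.54 to 0.62) in replicate 2, a mean of 0.90 ± 0.45. For the chromosome 1 cluster over the chromosome 2 cluster the log2 ratio was -0.43 (interval -0.49 to -0.37) in replicate 1 and -1.45 (interval -1.51 to -1.38) in replicate 2, a mean of -0.94 ± 0.72. The direction was the same in both libraries for all 3 ratios. The third moved between the libraries by more than its size in replicate 1. No p-value is given for these ratios, since 2 libraries cannot give an exact permutation p under 0.05.

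**Figure D3:**
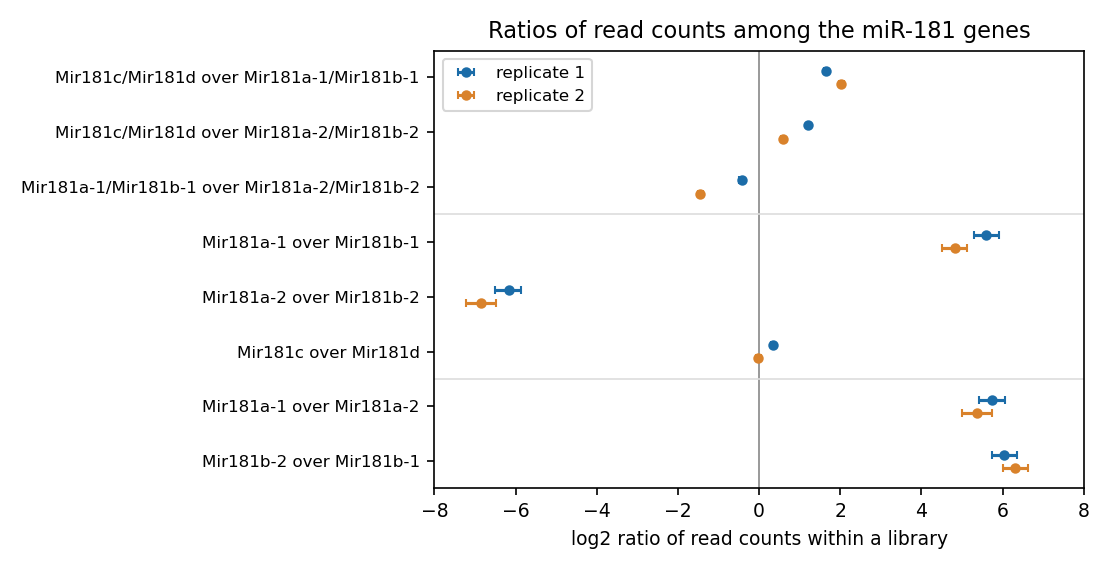
Log2 ratios of read counts within replicate 1 and replicate 2, with exact 95% binomial intervals, between clusters (top), between the 2 genes of a cluster (middle) and between the 2 loci of a shared 5p arm (bottom). The ratio of Mir181a-1 to Mir181b-1 lies far above 0 and that of Mir181a-2 to Mir181b-2 far below it, while Mir181c over Mir181d lies close to 0.

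Grouped by shared 5p arm rather than by cluster, the assigned counts of the paired loci were very unequal, and in opposite ways. For miR-181a, Mir181a-1 on chromosome 1 was above Mir181a-2 on chromosome 2 by 53.1-fold in replicate 1 and 41.2-fold in replicate 2. For miR-181b, Mir181b-2 on chromosome 2 was above Mir181b-1 on chromosome 1 by 65.7-fold in replicate 1 and 78.9-fold in replicate 2. Mir181b-1 and Mir181a-2 together held 0.706% of the assigned miR-181 reads in replicate 1 and 0.739% in replicate 2. Added over their loci, the miR-181a genes took 15.4 ± 3.93% of the assigned reads and the miR-181b genes 29.8 ± 7.37%. The miR-181c gene took 28.9 ± 4.12% and the miR-181d gene 25.8 ± 0.678% (n = 2). Reads that the deposited tables count as mapping to several places are not in these shares. An exact read of miR-181a-5p or miR-181b-5p matches 2 loci, while one of miR-181c-5p or miR-181d-5p matches 1 of the family. The shares are therefore not like for like and do not measure the mature products. The arms of a hairpin are counted as 1 gene in the deposited tables, so the split of Mir181a-1 or Mir181b-2 between its 5p and 3p arms was not analysed here.

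How unequal the assigned counts of these loci were can be set beside other microRNAs made from 2 loci. The table of RefSeq gave 19 pairs of genes in which exactly 2 loci hold 1 identical mature arm, the other arms are each found at a single locus, and at least 1 of the genes was detected. For each pair the locus with the higher mean CPM was put over the other, so the mean ratio is above 1 by construction. Mir181b-2 over Mir181b-1 ranked 1 of the 19, with a mean log2 ratio of 6.17, and Mir181a-1 over Mir181a-2 ranked 2, with 5.55. In the other 17 pairs the median was 1.23, or 2.35-fold. In 1 of them, Mir194-2 over Mir194-1, the lower locus had no reads and the higher locus was at least 19-fold higher in replicate 1 and at least 27-fold higher in replicate 2, from a floor of 3 reads per library. Its true place against the miR-181 pairs is therefore not known. Over the other 16 the highest mean log2 ratio was 4.29, that of Mir92-1 over Mir92-2, and the neuronal Mir138-1 over Mir138-2 stood at 0.09. Reads that map to several places are outside these counts, and an exact read of the shared arm matches both loci of a pair. The ratios therefore rest on the assigned reads and need not follow the output of the loci. The ratio a pair can reach is also limited by the reads of its higher locus. Mir365-1 (13 and 11 reads in replicates 1 and 2), Mir3070b (49 and 63) and Mir103-2 (33 and 109) had too few. Over a floor of 3 reads their pairs could not have reached the miR-181 ratios. A further 4 pairs were left out because neither gene was detected. The ranks describe the 2 libraries and carry no test.

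**Figure D4:**
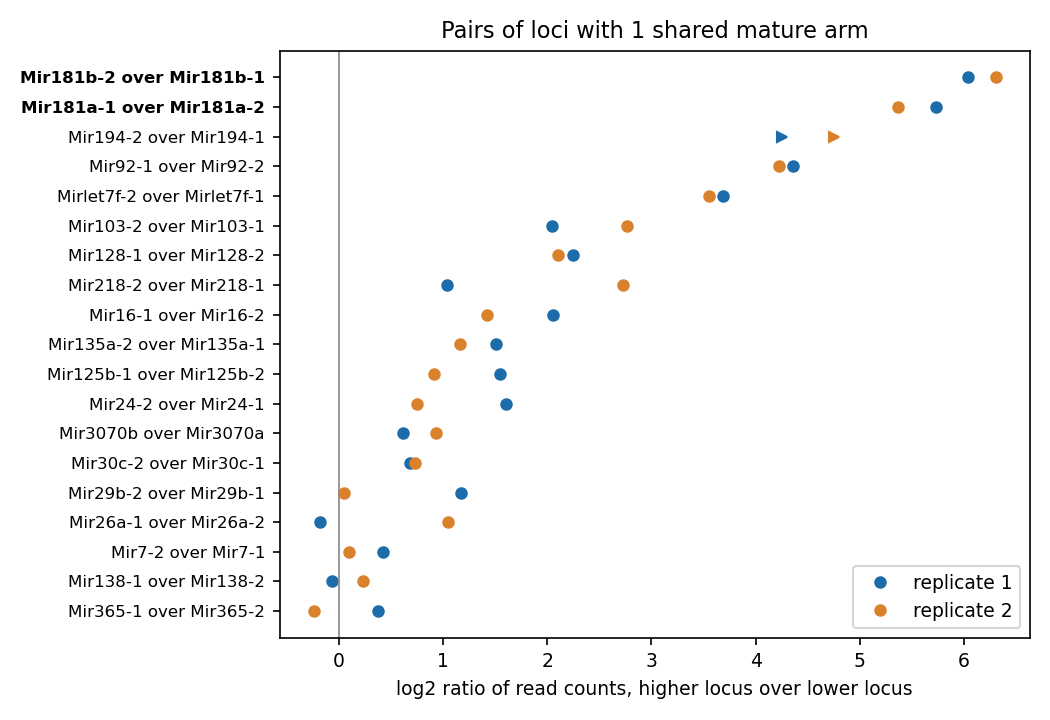
Log2 ratio of read counts of the higher over the lower locus in replicate 1 and replicate 2 for 19 pairs of loci with 1 identical mature arm; arrowheads mark lower bounds. The 2 miR-181 pairs (bold) lie at the top, with mean log2 ratios of 6.17 and 5.55, and the median of the other 17 is 1.23. Reads that map to several places are not counted.

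Between the 2 libraries the family moved in both directions. Of its 6 genes, 3 differed by an exact two-sided binomial test Benjamini-Hochberg adjusted over all 417 detected genes at a threshold of 0.05, beside 59.2% of all detected genes (247 of 417). The test sets one library against the other and says nothing of conditions. Mir181a-1 and Mir181c were higher in replicate 1, where 34.5% of all detected genes were called higher. The log2 ratio of replicate 1 to replicate 2 was 0.61 for Mir181a-1 (interval 0.54 to 0.69, adjusted p = 1.60e-67, binomial test as above) and 0.37 for Mir181c (interval 0.32 to 0.42, adjusted p = 7.24e-49). Mir181b-2 was higher in replicate 2, where 24.7% of all detected genes were called higher, with a log2 ratio of -0.43 (interval -0.48 to -0.38, adjusted p = 6.91e-65).

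The other 3 genes did not pass the threshold. For Mir181d the log2 ratio was 0.03 (interval -0.02 to 0.08, adjusted p = 0.376). For Mir181b-1 it was -0.17 (interval -0.60 to 0.27) and for Mir181a-2 0.25 (interval -0.24 to 0.74), with adjusted p of 0.565 and 0.421 in the same binomial test. At under 100 reads in each library, a change smaller than these intervals was not detectable for Mir181b-1 and Mir181a-2. No member was 2-fold apart, against 49 of the 417 detected genes (11.8%). The median detected gene was 0.37 apart on the log2 scale, and 28.5% of detected genes were at least as far apart as Mir181a-1, the widest of the family, while 95.7% were at least as far apart as Mir181d.

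**Figure D5:**
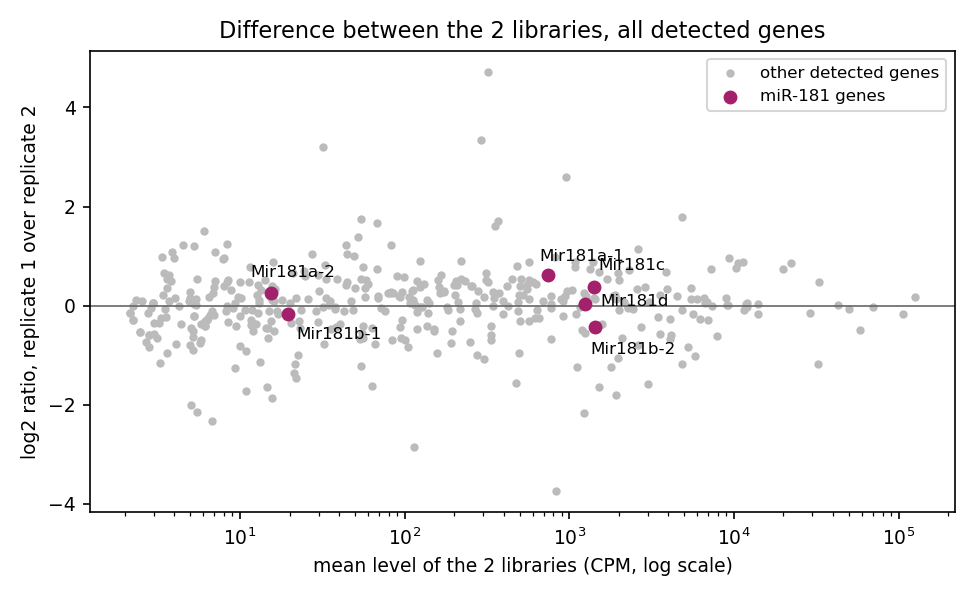
Log2 ratio of replicate 1 to replicate 2 against the mean level in CPM (log scale) for the 417 detected genes, with the 6 miR-181 genes coloured and named. The miR-181 genes lie between -0.43 and 0.61, inside the range of the other genes.

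By cluster, the genes on chromosome 8 summed to a log2 ratio of replicate 1 to replicate 2 of 0.21 (interval 0.17 to 0.25), those on chromosome 1 to 0.59 (interval 0.52 to 0.66) and those on chromosome 2 to -0.42 (interval -0.47 to -0.37). The family total stood at 4999 CPM in replicate 1 and 4721 CPM in replicate 2.

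Markers of other cells also differed between the libraries, and their part in the miR-181 differences was not tested. The red blood cell list had 3 of 4 genes detected and its sum was 602 CPM in replicate 1 against 88.5 CPM in replicate 2, with no read at Mir451b. Mir451a (529 and 52.2 CPM) and Mir144 (57.8 and 6.30 CPM) made up that excess, while Mir486 ran the other way, at 15.0 and 29.9 CPM. The oligodendrocyte list, with 3 of 4 detected and no read at Mir219b, summed to 3393 and 5622 CPM. The neuronal list had 14 of 16 detected and summed to 58993 and 67948 CPM. Mir132 alone, at 19682 and 44698 CPM, turned that sum: without it the neuronal list summed to 39311 and 23251 CPM. Of the 14 detected genes of the full list, 10 were called higher in replicate 1 and 2 higher in replicate 2. Over all detected genes these shares were 34.5% and 24.7%. The astroglial list had 7 of 7 detected and summed to 41855 and 32431 CPM, with Mir23b at 25038 and 14908 CPM; without Mir23b it summed to 16817 and 17523 CPM. The list for microglia and leukocytes, cells in which miR-181 is known to act, had 6 of 7 detected, no read at Mir142b, and summed to 1936 and 2088 CPM. The vascular list had 3 of 4 detected, no read at Mir126b, and summed to 20418 and 21812 CPM. Calls higher in replicate 1 and in replicate 2 were 2 and 1 for red blood cells and 0 and 2 for oligodendrocytes. They were 2 and 3 for astroglia, 2 and 2 for microglia and leukocytes, and 1 and 2 for vessels.

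Of 3 families spread over several loci, miR-181 had the lowest sum of assigned reads. Its 4860 ± 197 CPM stood against 15677 ± 163 CPM for the miR-29 family, with 4 of 4 genes detected, and 17204 ± 2103 CPM for the miR-30 family, with 6 of 6 detected (n = 2 each). The loci of these families that share a mature arm had low assigned counts. They stood at 54.6 ± 31.0 CPM for Mir29b-1, 76.4 ± 3.97 CPM for Mir29b-2, 119 ± 27.2 CPM for Mir30c-1 and 195 ± 48.8 CPM for Mir30c-2. Low counts were not particular to such loci: Mir30b, in none of the pairs above, had 136 ± 7.03 CPM. Over all those pairs, loci with a shared arm ranged from 0 CPM for Mir194-1 to 10524 CPM for Mir128-1. By assigned reads the miR-181 family held both lower loci with a shared arm, Mir181b-1 and Mir181a-2, and higher ones, Mir181a-1 and Mir181b-2. Reads of a shared arm can map to several places and are then left out, so all these levels can be too low. The families also differ in what part of their loci share an arm, so the order of the sums is that of the assigned reads only. The difference between families carries no test, since families are not replicates.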

How the data were processed

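Small RNA under 30 bases from total RNA was sequenced in 2 libraries, per the labels. The deposited values are raw read counts per microRNA gene, against mm10 and GENCODE M21 per the notes deposited with the files. For the aligner and counter, the tool is not given in the sources used here. Each table also lists unassigned reads: in replicates 1 and 2, 38.5% and 33.0% mapped to several places, 25.6% and 34.3% were unmapped and 5.82% and 6.54% mapped outside microRNA genes. These lines stayed out of library sizes and tests. Of 16403925 and 16991914 reads, 30.1% and 26.1% were assigned on the sense strand, and 1 read is worth 0.203 and 0.225 CPM.

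Symbols came from GENCODE M21 (2202 of 2202 identifiers matched) and sequences from RefSeq tables of the same assembly. The members and lists were chosen with earlier results of these data known. All 6 members are named, with 2 comparison families and the 2 genes nearest in level to the leading member of each cluster; other genes were named after their values were seen. Ratios and shares have exact 95% binomial intervals (SciPy 1.17.1, Python 3.11.15). Alternatives used edgeR 4.0.16 and DESeq2 1.42.0 (R 4.3.3) for scaling factors only. The effect of CAST sequence differences from mm10 on mapping was not tested.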

Additional observations from a re-analysis of the deposited data

How the results depend on the processing

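Every share and ratio of the clusters had the same value in the column without regard to strand, since no member has opposite-strand reads, and none depends on scaling. With a single library left, the shares ranged from 52.3 to 57.1% for Mir181c/Mir181d, from 12.8 to 18.3% for Mir181a-1/Mir181b-1 and from 24.6 to 34.9% for Mir181a-2/Mir181b-2. The log2 ratio of Mir181c to Mir181d was -0.01 without replicate 1, with a counting interval that spans 0, and 0.33 without replicate 2. The number of genes that differ between the libraries was 247 of 417. It was 226 of 392 in the column without strand, 247 of 417 under TMM factors, 246 of 417 under DESeq2 size factors, 270 of 417 scaled by all reads, 218 of 270 with at least 100 counts and 275 of 766 with no filter. Of the miR-181 genes 3 of 6 differed under each of these (3 of the 4 tested with at least 100 counts) except scaling by all reads, which made it 4 of 6, with Mir181d at 0.23 (adjusted p = 1.74e-17, binomial test). That scaling moved the median log2 ratio of all detected genes to 0.25, against 0.05. Over the alternatives the adjusted p of Mir181d otherwise lay between 0.312 and 0.839. The sign turned for 2 genes that were not called: Mir181b-1 stood at 0.035 scaled by all reads, and Mir181d at -0.0188 under TMM factors. A change of scaling shifts the log2 ratio of every gene by the same amount, so ratios near 0 can change sign. Why the library totals differ between these scalings was not tested. Leaving out a library leaves no comparison between libraries. No paired analysis was possible because there is a single group. Depth limits Mir181b-1 and Mir181a-2, which have under 100 reads in each library.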

Other observations

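The detected genes closest in level to the leading member of each cluster were found by the Euclidean distance of log2(CPM + 1), with a pseudocount of 1 CPM, over the 2 libraries. For Mir181b-2 these were Mir27b (1227 CPM in replicate 1 and 1701 CPM in replicate 2, distance 0.06), of a cluster known from astrocytes and vessels, and Mir29c (1326 and 1730 CPM, distance 0.15). For Mir181c they were Mirlet7c-2 (1489 and 1343 CPM, distance 0.16) and Mir668 (1505 and 1366 CPM, distance 0.17). For Mir181a-1 they were Mir204 (1084 and 552.5 CPM, distance 0.29), a microRNA abundant in choroid plexus, and Mir346 (828 and 720 CPM, distance 0.32). With 2 libraries such closeness says only that the levels are alike.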
